A study of Mus musculus with 4 samples.

Results

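Transcripts of 10 enzymes that burn fatty acids or use ketone bodies were followed through osteoclast formation in culture. The enzymes were looked up by gene symbol in the probe annotation. All 10 had probe sets with exactly 1 symbol, 22 probe sets in all, among 18193 genes named this way on the arrays. The list was drawn up with earlier results of these arrays known, and Bdh1 was selected on its rise over the culture, so its ratios, and those of the other 9, are a description and carry no test. Where a gene had several probe sets, the brightest one (by its average on the log2 scale) stands for it.

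Cells were marrow macrophages of C57BL/6 mice aged 8 to 10 weeks and the osteoclasts grown from them, with 1 array for each of 4 groups. The macrophages (BMM) had 3 days of M-CSF at 100 ng/ml, and the TRAP-positive mononuclear pre-osteoclasts (pOC) came from BMM after 2 days of M-CSF with RANKL, also at 100 ng/ml. Multinucleated osteoclasts came from pOC after 2 more days with both factors, on a plastic plate (mOCp) or on dentin slices, which they resorb (mOCd). M-CSF is thus common to all 4 groups, and RANKL is confounded with time in culture. The labels do not say how many animals gave each RNA or whether cells were pooled, and no group was replicated, so differences between groups have no replicate check.

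Fatty acids enter mitochondria as carnitine esters through the carnitine palmitoyltransferases and are then shortened in a repeated cycle of dehydrogenation, hydration, a further dehydrogenation and thiolysis, which yields acetyl-CoA. Ketone bodies are a second fuel: 3-hydroxybutyrate is oxidised to acetoacetate, which is charged with CoA and split to acetyl-CoA. Osteoclasts are rich in mitochondria, and resorption is known as a costly process for the cell.

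The stretches upstream of 4 of these genes are shown because the results turn on them: Bdh1 and Oxct1 are the ketone body pair, Hadhb shares its upstream stretch with Hadha, which is read in the opposite direction, and Cpt1a is the entry step of fatty acid oxidation. RefSeq entries of GRCm38.p6 were found for 9 of the 10 genes, all except Acaa2. Each line holds the 250 bases before the start site (for Bdh1, the first of 2 listed), read 5′ to 3′ on the strand of the gene. Capitals mark matches to the motifs named after the sequences.
Bdh1, chr16:31422047-31422296, plus strand: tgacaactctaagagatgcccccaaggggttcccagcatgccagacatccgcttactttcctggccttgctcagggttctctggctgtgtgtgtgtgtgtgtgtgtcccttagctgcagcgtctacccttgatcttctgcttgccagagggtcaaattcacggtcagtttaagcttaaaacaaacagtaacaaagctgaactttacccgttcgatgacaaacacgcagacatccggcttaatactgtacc
Oxct1, chr15:4026178-4026427, plus strand: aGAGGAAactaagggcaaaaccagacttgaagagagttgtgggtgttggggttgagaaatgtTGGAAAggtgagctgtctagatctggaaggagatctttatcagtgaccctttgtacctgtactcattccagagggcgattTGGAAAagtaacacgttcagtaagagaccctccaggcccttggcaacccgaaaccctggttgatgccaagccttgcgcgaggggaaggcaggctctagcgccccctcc
Hadhb, chr5:30155003-30155252, plus strand: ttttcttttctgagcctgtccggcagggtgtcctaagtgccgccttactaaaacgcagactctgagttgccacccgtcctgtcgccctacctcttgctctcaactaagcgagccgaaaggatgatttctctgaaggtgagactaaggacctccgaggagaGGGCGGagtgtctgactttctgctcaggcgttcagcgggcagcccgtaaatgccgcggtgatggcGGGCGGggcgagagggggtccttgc
Cpt1a, chr19:3323051-3323300, plus strand: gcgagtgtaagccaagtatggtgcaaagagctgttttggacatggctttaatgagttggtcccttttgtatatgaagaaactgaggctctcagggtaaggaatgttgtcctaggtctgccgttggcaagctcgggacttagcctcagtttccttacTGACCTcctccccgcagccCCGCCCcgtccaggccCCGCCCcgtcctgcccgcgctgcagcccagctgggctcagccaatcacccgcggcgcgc

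In these windows 8 motifs were searched on both strands. The core of nuclear receptor sites, AGGTCA, was present in 3 of the 9 genes (Cpt1a, Acadm and Acadvl) and in 14.0% of all 32851 windows. The longer element of the estrogen-related receptors, TNAAGGTCA, which contains that core, was in 0 of 9 (1.14% of windows). The GC box, GGGCGG, was in 5 of 9 (32.7%), with 4 copies upstream of Acadl. Another copy lay in the stretch common to Hadha and Hadhb, whose start sites have 272 bases between them, and was counted for both genes. The GC content of these 5 windows was from 56.8% to 68.0%, against a median of 52.4% over all windows. Its part in the count was not tested. The NRF1 core, GCGCATGC, was upstream of Acadm alone (2.26%). The NFAT core TGGAAA (18.6%) occurred at 2 places and the PU.1 core GAGGAA (23.3%) at 1 place upstream of Oxct1, and in no other of these genes. The E-box CACGTG (6.02%) and the AP-1 site TGACTCA (4.46%) were in 0 of 9. A match describes letters and not a binding site, and the Bdh1 window held 0 of the 8 motifs, as did the window of a second Bdh1 start site 6456 bases downstream, which is not printed.

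Intensities were compared after values under the median of an array (the floor, at 12.7 for BMM, 14.5 for pOC, 14.8 for mOCp and 15.8 for mOCd) were raised to it. To be counted, a gene needed a ratio of at least 2-fold in either direction and a brighter value no lower than the 75th percentile on that array, which ranged from 77.8 to 87.0. Genes that met the second condition are called eligible. All 10 enzymes were eligible in all 6 comparisons, 9 of them through values above the 75th percentile on all 4 arrays. Bdh1 was under that percentile in BMM, so it was eligible there only through the later stages. The only guide to error is the disagreement between probe sets of a gene, with an SD on the log2 scale of 0.41 for pOC over BMM and for mOCp over pOC, 0.54 for mOCd over pOC, 0.46 for mOCd over mOCp, 0.48 for mOCp over BMM and 0.53 for mOCd over BMM.

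The labelled cell types were checked against their markers. The summed intensity of 10 osteoclast markers was 256.5 in BMM and 31901.5 in pOC, then 49318.4 in mOCp and 49835.4 in mOCd, and that of 10 macrophage markers was 25581.9 in BMM and between 6664.1 and 11587.7 afterwards. Such sums follow the brightest probe sets. Most of the later macrophage sum was Csf1r, at 5815.9 in BMM and 4898.6 in pOC, then 7511.7 in mOCp and 7644.1 in mOCd. Of the 10 macrophage markers 9 were at least 2-fold lower in pOC than in BMM, 8 in mOCp and 9 in mOCd. Among all eligible genes the shares lower were 13.1%, 19.4% and 20.3%. All 4 adipocyte markers with a probe set, Adipoq among them, were under the floor except Retn in mOCd (31.8). Neutrophil markers, 9 of 9 above the floor on at least 1 array, summed to 433.1 in BMM and 973.2 in pOC, then 2059.7 in mOCp and 1103.4 in mOCd. Stromal and osteoblast markers, 4 of 8 above the floor somewhere, summed to between 70.2 and 298.4. Among them Dcn read 8.8 in BMM, under the floor, and 196.1 in pOC, then 55.0 in mOCp and 127.3 in mOCd. The part of these cells in the values below was not tested, and in RNA from a whole culture fewer cells of a type and less RNA per cell cannot be told apart.

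Most of the enzymes were brighter in pOC than in BMM and brighter again in the mature cultures, and Bdh1, Acaa2 and Oxct1 had the highest ratios over the whole course. In pOC over BMM, 4 of 10 were at least 2-fold higher (Bdh1, Acaa2, Hadhb and Oxct1) and 0 lower, beside 11.1% of all eligible genes higher and 13.1% lower. In mOCp over pOC, 4 were higher (Acaa2, Bdh1, Acadl and Oxct1) and 0 lower, beside 8.78% higher and 11.4% lower. In mOCd over pOC, 3 were higher (Acaa2, Bdh1 and Oxct1) and 0 lower, beside 10.8% and 12.2%. Over the whole course 7 were higher in mOCp than in BMM and 6 in mOCd than in BMM, with 0 lower in either, beside 16.8% higher and 19.4% lower for mOCp and 18.8% and 20.3% for mOCd. Several calls, not only those nearest the threshold, ended under other settings. Oxct1 in mOCp over pOC was no longer counted with quantile normalization (log2 ratio 0.77), cyclic loess (0.93) or the hybridization controls (0.65), and in mOCd over pOC with those controls (0.86). Acadl in mOCp over pOC was not counted with those controls (0.80), nor with the mean over its probe sets, which is too dim to be eligible. In mOCp over BMM the calls of Acadm, Acadl and Acadvl ended with median scaling (0.93, 0.86 and 0.91) and with those controls (0.85, 0.78 and 0.83). Those of Acadm and Acadl also ended with cyclic loess (0.94 and 0.90), and that of Acadl with the mean over its probe sets (0.265). With that mean Hadhb was not counted in pOC over BMM (0.31), mOCp over BMM (−0.08) or mOCd over BMM (0.98). The call of Acadvl in mOCd over BMM ended with median scaling (0.965). These comparisons share arrays and the enzymes were chosen with them known, so the counts are not independent of the choice or of each other.

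The median log2 ratio of the 10 was 0.65 in pOC over BMM, 0.59 in mOCp over pOC and 0.70 in mOCd over pOC, where the median of all eligible genes was 0.05, −0.03 and −0.01. Over the whole course it was 1.14 in mOCp and 1.17 in mOCd over BMM, where that of all eligible genes was −0.06 and −0.03. All 10 log2 ratios were above 0 in both maturation comparisons and in both whole courses, and 9 of 10 in pOC over BMM, where Acadl was the exception. These signs depend on how arrays are scaled for the smallest ratios: with arrays scaled to the hybridization controls, 7 of 10 were above 0 in mOCp over pOC, where Cpt1a, Cpt2 and Hadha turned, 8 in mOCd over pOC, where Cpt2 and Hadha turned, and 9 in mOCp over BMM, where Cpt1a turned. With median scaling Cpt1a also turned in pOC over BMM (−0.09). With the mean over all probe sets of a gene, Cpt1a was below 0 in mOCp over pOC (−0.14), as was Hadhb (−0.40), and both were in mOCp over BMM (−0.15 for Cpt1a and −0.08 for Hadhb), while Cpt1a in pOC over BMM and Cpt2 in mOCd over pOC were at −0.002 and −0.05. The Hadhb mean includes a probe set under the floor in pOC (11.0) and mOCp (3.0), averaged before values were raised to the floor. The 2 bright Hadhb probe sets were above 0, at 0.41 and 0.28 in mOCp over pOC and at 1.67 and 0.46 in mOCp over BMM.

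**Figure D1:**
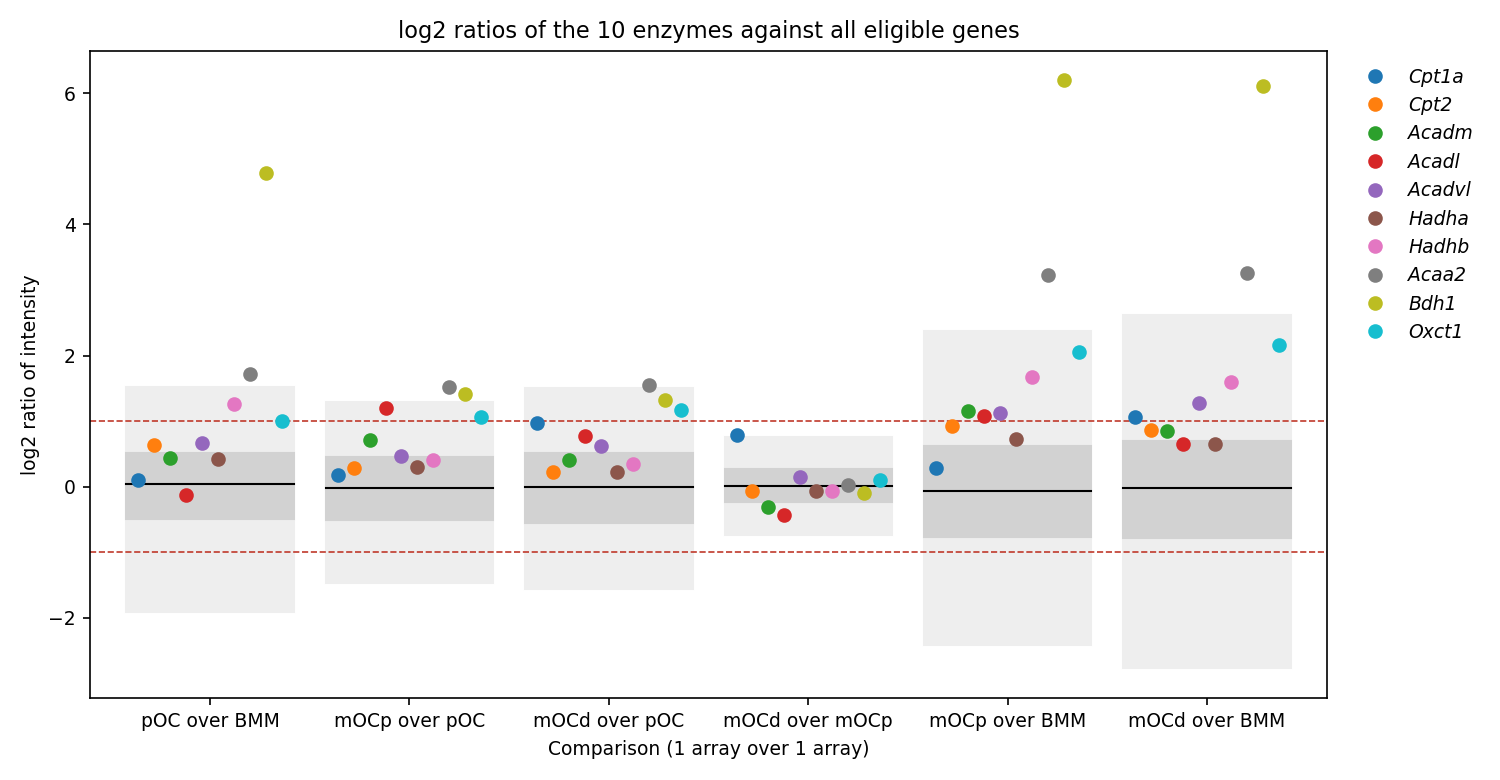
log2 ratio of intensity (vertical axis) of the 10 enzymes in 6 comparisons of 1 array over 1 array (horizontal axis). Grey boxes span the central 90% (light) and 50% (dark) of eligible genes with their median as a black line, and dashed lines mark 2-fold. Bdh1 stands at 4.79 in pOC over BMM and above 6 in both mature cultures over BMM, while the other 9 lie between −0.43 and 3.26 over the 6 comparisons.

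Scaling also moved the genes at large. Relative to the deposited scale, the median ratio of eligible genes went to −0.44 in mOCp over pOC and −0.32 in mOCd over pOC with the hybridization controls, and to −0.15 in pOC over BMM with median scaling. The split of higher against lower genes, 631 against 820 in mOCp over pOC, 779 against 885 in mOCd over pOC and 1254 against 1442 in mOCp over BMM, became 301 against 1582, 476 against 1462 and 932 against 2041 with those controls. In pOC over BMM it was 807 against 953, and 587 against 1213 with median scaling. In mOCd over mOCp it was 152 against 176, and 111 against 230 with median scaling or 209 against 140 with those controls. In mOCd over pOC median scaling gave 635 against 1089. In mOCd over BMM it was 1418 against 1529, and 1050 against 2073 with median scaling; in mOCp over BMM median scaling gave 994 against 1856.

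On the deposited scale both carnitine transferases stayed under 2-fold in pOC over BMM and in either mature culture over pOC. Cpt1a encodes the outer-membrane carnitine palmitoyltransferase, the controlled entry step that malonyl-CoA inhibits. It read 318.6 in BMM and 340.8 in pOC, then 386.5 in mOCp and 665.9 in mOCd. The first 3 values lie within 0.28 of each other on the log2 scale, less than the disagreement of probe sets, and the dentin culture stood above them, 2.09-fold over BMM and 1.95-fold over pOC. The second of these ratios is just short of the threshold, and it was counted with cyclic loess (log2 ratio 1.05). The first was under 2-fold with median scaling (log2 ratio 0.75), the hybridization controls (0.86) or the mean over probe sets (0.66). The 2 dimmer probe sets of Cpt1a were also highest in mOCd, at 166.9 and 61.6, which is 1.80-fold and 1.04-fold over BMM, but in mOCp they read 72.7 and 45.8, below 103.5 and 49.3 in pOC. Cpt2, the inner-membrane enzyme that returns the acyl group to CoA, read 119.0 in BMM and 185.0 in pOC, then 225.5 in mOCp and 216.4 in mOCd. That is 1.82-fold in mOCd and 1.89-fold in mOCp over BMM, both under 2-fold, and most of it, 73.8% and 69.0% of the log2 rise, was already there in pOC. In mOCp over BMM Cpt2 was counted with quantile normalization (log2 ratio 1.06) and cyclic loess (1.04).

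The acyl-CoA dehydrogenases take the first step of each cycle and differ in the chain length they accept. Acadvl, for very long chains, read 276.5 in BMM and 438.2 in pOC, then 604.2 in mOCp and 671.5 in mOCd, which is 2.43-fold higher in mOCd and 2.19-fold higher in mOCp than in BMM. Acadl, for long chains, read 667.6 in BMM and 613.3 in pOC, then 1413.8 in mOCp and 1051.3 in mOCd. BMM and pOC did not differ beyond the disagreement of probe sets, and the mature culture on plastic was 2.31-fold above pOC, against 1.71-fold for dentin. The other Acadl probe set was under the floor on all 4 arrays. Acadm, for medium chains, read 665.5 in BMM and 904.0 in pOC, then 1480.2 in mOCp and 1196.9 in mOCd, 2.22-fold higher than BMM on plastic and 1.80-fold on dentin. Acadvl, Acadm and Hadha each had 1 probe set, so their values have no second measurement.

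Hadha and Hadhb encode the subunits of the mitochondrial trifunctional protein, which carries out the rest of the cycle for long chains, and their genes stand head to head around the stretch printed above. Hadha read 361.7 in BMM and 486.9 in pOC, then 597.1 in mOCp and 567.5 in mOCd, at most 1.65-fold over BMM. Hadhb read 521.6 in BMM and 1249.5 in pOC, then 1658.3 in mOCp and 1579.5 in mOCd, 2.40-fold higher in pOC and 3.03-fold and 3.18-fold higher in mOCd and mOCp than in BMM. Both genes had the same order of stages, but the larger size for Hadhb rests on that probe set. A second bright Hadhb probe set read 867.6 in BMM and 983.1 in pOC, then 1193.5 in mOCp and 1262.1 in mOCd, 1.13-fold in pOC over BMM and 1.46-fold in mOCd over BMM, and the remaining one exceeded the floor on 2 arrays only.

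Acaa2 encodes the mitochondrial 3-ketoacyl-CoA thiolase, which releases acetyl-CoA at the end of each cycle. Among the 8 fatty acid oxidation enzymes it had the highest ratio in all comparisons except mOCd over mOCp. Its intensity was 216.6 in BMM and 712.5 in pOC, then 2036.5 in mOCp and 2077.3 in mOCd. The ratio was 3.29-fold in pOC over BMM, 2.86-fold in mOCp over pOC and 2.92-fold in mOCd over pOC, so that mOCd stood 9.59-fold and mOCp 9.40-fold over BMM. All 3 probe sets gave at least 2-fold in each of these comparisons, and the other 2 lay at 2.62-fold and 3.31-fold in pOC over BMM and at 6.95-fold and 7.72-fold in mOCd over BMM. The mature cultures differed by 0.03 on the log2 scale, less than the disagreement of probe sets.

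**Figure D2:**
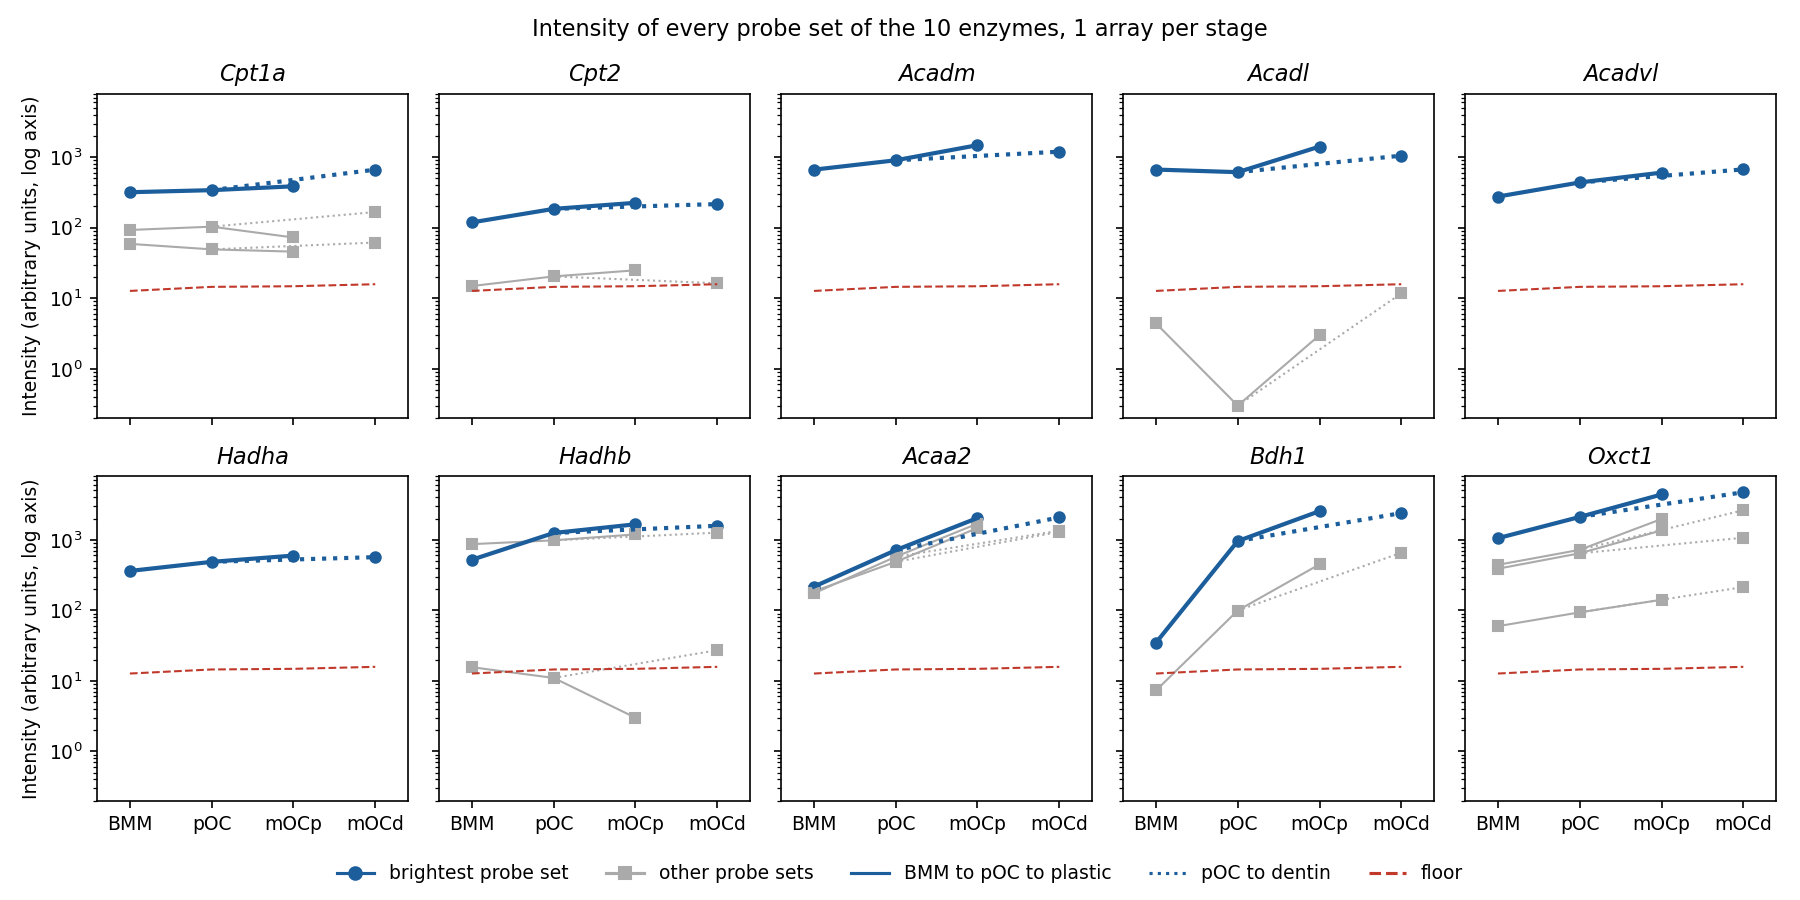
Intensity in arbitrary units on a log axis (vertical) on the arrays of BMM, pOC, mOCp and mOCd (horizontal) for every probe set of each enzyme, with the brightest in blue circles, the others in grey squares and the floor as a red dashed line. Solid lines follow the culture to plastic and dotted lines lead from pOC to dentin. The 3 probe sets of Acaa2 run together, those of Hadhb do not, and the dimmer Bdh1 probe set starts under the floor at 7.3.

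Bdh1 encodes the mitochondrial 3-hydroxybutyrate dehydrogenase, which interconverts 3-hydroxybutyrate and acetoacetate. It was above the floor but under the 75th percentile in macrophages and far above that percentile in every later culture. Its intensity was 34.7 in BMM and 959.6 in pOC, then 2548.7 in mOCp and 2390.9 in mOCd. That is 27.7-fold in pOC over BMM, 2.66-fold in mOCp over pOC and 2.49-fold in mOCd over pOC, and over the whole course 68.9-fold in mOCd and 73.5-fold in mOCp. By the time of pOC, 78.4% of the log2 rise to mOCd and 77.3% of that to mOCp had taken place. The second Bdh1 probe set read 7.3, under the floor, in BMM, then 99.4 in pOC, 448.4 in mOCp and 655.7 in mOCd. It gave at least 7.83-fold in pOC over BMM and at least 51.6-fold in mOCd and 35.3-fold in mOCp over BMM, with 6.60-fold in mOCd and 4.51-fold in mOCp over pOC. The probe sets share the direction at every step into the mature cell, and they split the rise differently between the early and the late step. In the ranking of eligible genes by ratio, Bdh1 stood at place 23 of 7251 in pOC over BMM. A high place follows from its selection on this rise and is no separate result.

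Oxct1 encodes succinyl-CoA:3-ketoacid CoA transferase, which charges acetoacetate with CoA and so commits ketone bodies to oxidation. Its intensity was 1054.5 in BMM and 2110.0 in pOC, then 4388.5 in mOCp and 4723.5 in mOCd. The ratio was 2.00-fold in pOC over BMM, just inside the threshold, 2.08-fold in mOCp over pOC and 2.24-fold in mOCd over pOC. Over the whole course Oxct1 was 4.48-fold higher in mOCd and 4.16-fold higher in mOCp than in BMM. Its 3 other probe sets gave from 1.57-fold to 1.65-fold in pOC over BMM, under the threshold, and from 2.75-fold to 5.94-fold in mOCd over BMM. The call of Oxct1 in pOC over BMM also ended with median scaling (log2 ratio 0.81) and cyclic loess (0.71). It ended as well with the mean over probe sets (0.77) and without suffixed probe sets (0.71). Of the other ketone body genes, Acat1, the thiolase that splits acetoacetyl-CoA, read 718.6 in BMM and 1030.7 in pOC, then 1177.1 in mOCp and 1032.7 in mOCd, at most 1.64-fold over BMM. Bdh2, a cytosolic dehydrogenase named for its likeness to Bdh1, was under the floor in BMM (3.7) and measured 107.9 in pOC, then 116.9 in mOCp and 163.6 in mOCd, which is at least 8.50-fold in pOC and at least 12.9-fold in mOCd over BMM. Aacs, which spends acetoacetate on lipid synthesis in the cytosol, went the other way, with 121.0 in BMM and 48.2 in pOC, then 35.7 in mOCp and 35.2 in mOCd, 2.51-fold lower in pOC and 3.44-fold lower in mOCd than in BMM. Oxct2a was under the floor on all arrays.

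On their brightest probe sets, the enzymes differed little between the mature cultures, as did eligible genes at large. In mOCd over mOCp 0 of 10 reached 2-fold in either direction, beside 2.2% of eligible genes higher and 2.55% lower. With such small shares, 0 of 10 does not set the enzymes apart from other genes. The median log2 ratio of the enzymes was −0.06 and the range −0.43 to 0.78. The central 50% of eligible genes lay between −0.23 and 0.27, with a median of 0.01. Acadl had the lowest ratio, at 1051.3 in mOCd against 1413.8 in mOCp, and Cpt1a the highest, at 665.9 in mOCd against 386.5 in mOCp (1.72-fold), the only ratio of the 10 larger than the probe-set SD of 0.46. The other probe sets of Cpt1a had ratios of 2.30-fold and 1.34-fold, in the same direction. Of 9 other probe sets of the enzymes above the floor on all arrays, 5 had the sign of the brightest one. Single other probe sets of Cpt2, Oxct1 and Bdh1 stood at −0.61, 0.60 and 0.55 on the log2 scale, beyond that SD. Their brightest probe sets stood at −0.06, 0.11 and −0.09. The 3′ to 5′ signal ratio of the transferrin receptor control was 3.25 in mOCd, against 1.79 in mOCp, 2.02 in pOC and 1.99 in BMM, while those of Gapdh and beta-actin lay between 0.74 and 1.22 on every array. The part of RNA quality in the dentin ratios was not tested.

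Genes with a course like that of Bdh1 were sought among 9063 others above the floor on all 4 arrays, by the root mean square distance between log2 ratios to BMM in pOC, mOCp and mOCd. The likeness thus rests on 3 ratios that share the BMM array. The nearest was Bhlhe40, a transcription factor, with 24.8 in BMM and 870.5 in pOC, then 1628.3 in mOCp and 1530.3 in mOCd (distance 0.24). It was followed by Grk3, a kinase of G protein-coupled receptors (0.49), Sdc1, the heparan sulfate proteoglycan syndecan-1 (0.51), Myo1d, an unconventional myosin (0.58), and Coq8a, a mitochondrial protein needed for coenzyme Q synthesis (0.60). Bhlhe40 and Grk3 matched Bdh1 in mOCd most closely, at 61.7-fold and 63.9-fold over BMM against 68.9-fold for Bdh1, whereas Myo1d went on to 139-fold.

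**Figure D3:**
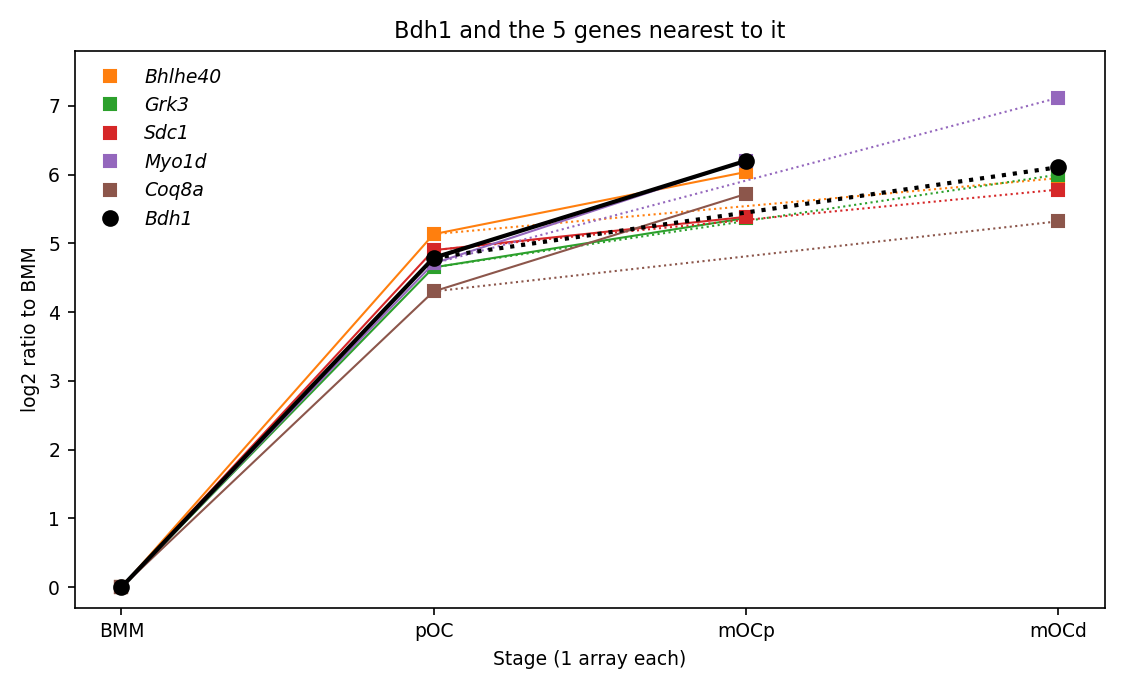
log2 ratio of intensity to BMM (vertical axis) on the arrays of BMM, pOC, mOCp and mOCd (horizontal axis) for Bdh1 (black circles) and the 5 genes nearest to it (coloured squares), 1 array per stage, with dotted lines from pOC to dentin. All 6 genes make most of their log2 rise by pOC, and Myo1d in mOCd lies above the rest.

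The remaining genes of the pathway were taken from 9 lists. Of 10 other mitochondrial beta-oxidation enzymes, 2 were at least 2-fold higher in pOC than in BMM, 5 in mOCd and 4 in mOCp than in BMM, and 0 were lower in any comparison. All 10 were eligible, and the shares higher among all eligible genes were 11.1% in pOC over BMM, 18.8% in mOCd over BMM and 16.8% in mOCp over BMM, the first of them not far from 2 of 10. The median log2 ratio of the list was 0.91 in mOCd and 0.80 in mOCp over BMM. Hsd17b10, a dehydrogenase of short branched acyl chains, read 408.9 in BMM and 1476.7 in pOC, then 1663.7 in mOCp and 1070.6 in mOCd. Eci2, an enoyl-CoA isomerase, read 221.2 in BMM and 485.2 in pOC, then 638.6 in mOCp and 694.8 in mOCd. Acads, the short-chain dehydrogenase, was 3.58-fold higher in mOCd and 2.92-fold higher in mOCp than in BMM, Echs1, the short-chain hydratase, 2.93-fold and 2.82-fold, and Eci1, another isomerase, 2.44-fold in mOCd and 1.84-fold in mOCp. Hadh, the short-chain hydroxyacyl dehydrogenase, read 1567.5 in mOCd against 1181.5 in BMM and was not counted in any comparison.

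Electrons from the acyl-CoA dehydrogenases pass through the electron transfer flavoprotein to its dehydrogenase. Etfdh, that dehydrogenase, read 206.8 in BMM and 417.5 in pOC, then 874.7 in mOCp and 1185.9 in mOCd, at least 2-fold higher in pOC than in BMM and in both mature cultures than in pOC, and 5.74-fold in mOCd and 4.23-fold in mOCp over BMM. Etfa, the alpha subunit of the flavoprotein, was 2.10-fold higher in mOCd and 2.26-fold higher in mOCp than in BMM, and Etfb, the beta subunit, 1.82-fold and 1.66-fold. Of 4 other carnitine shuttle genes, all eligible in mOCd over pOC, mOCp or BMM, 1 was higher in each of these comparisons and 0 lower. Among all eligible genes 10.8%, 2.2% and 18.8% were higher, the last not far from 1 of 4. In the other comparisons 0 of 3 eligible genes were counted. The counted gene was Cpt1c, the brain form of the transferase, 3.33-fold higher in mOCd than in mOCp. It was under the floor in BMM (4.9) and read 47.3 in pOC, 52.4 in mOCp and 174.4 in mOCd.

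By their brightest probe sets, genes of fatty acid uptake, binding and activation were counted only as lower in pOC and in the mature cultures relative to BMM. In this list 7 of 10 genes with a probe set were eligible in pOC over BMM, of which 0 were higher and 3 were lower, beside 11.1% higher and 13.1% lower among all eligible genes. In mOCd over BMM and in mOCp over BMM, 2 of 7 eligible genes were lower and 0 higher. Among all eligible genes 20.3% and 19.4% were lower, not far from 2 of 7, and 18.8% and 16.8% higher. The median log2 ratio of the list was −1.23 in pOC over BMM, −0.82 in mOCd over BMM and −0.87 in mOCp over BMM. These medians cover the 9 genes above the floor on at least 1 array, eligible or not. Cd36, a receptor for long-chain fatty acids and oxidised lipoprotein, read 4778.6 in BMM and 466.3 in pOC, then 841.8 in mOCp and 453.2 in mOCd, 10.2-fold lower in pOC than in BMM. Acsl4, an acyl-CoA synthetase of polyunsaturated fatty acids, was 2.35-fold lower in pOC, and Fabp5, a fatty acid binding protein, 2.58-fold lower in mOCd and 2.32-fold lower in mOCp than in BMM. Acsl3, an acyl-CoA synthetase of lipid droplets, dipped, with 132.6 in BMM and 37.3 in pOC, then 98.8 in mOCp and 154.3 in mOCd. Slc27a4, a transport protein, read 169.7 in mOCd against 74.1 in pOC (2.29-fold higher). Slc27a1, another transport protein, read 503.5 in BMM and 732.4 in pOC, then 622.0 in mOCp and 743.1 in mOCd, at most 1.48-fold over BMM. Its dimmer probe set read 225.8 in BMM and 632.6 in mOCd (log2 ratio 1.49), but 337.6 in pOC (0.58) and 238.5 in mOCp (0.08). Acsl1 was not analysed here.

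Of 10 peroxisomal genes with a probe set, 0 of 5 eligible genes were counted in pOC over BMM. In mOCd over BMM 3 of 6 eligible genes were higher, beside 18.8% of all eligible genes, and in mOCp over BMM 2 of 5, beside 16.8%, with 0 lower. Crot, which exports shortened acyl groups as carnitine esters, read 229.8 in BMM and 292.5 in pOC, then 630.7 in mOCp and 574.8 in mOCd. The other counted genes of this list were Abcd3, a peroxisomal fatty acid importer (2.12-fold in mOCd over BMM), Acaa1a, the peroxisomal thiolase (1.44 in mOCd over BMM on the log2 scale, but 0.50 on its other probe set), and Scp2, a thiolase and lipid carrier (1.00 in mOCp over BMM on the log2 scale, at the threshold, with 0.63, 0.24 and 1.06 on its 3 other probe sets). Of the malonyl-CoA and lipolysis list, Pnpla2, the lipase of the first step of triglyceride breakdown, was 2.33-fold higher in mOCd and 2.32-fold higher in mOCp than in BMM, and Mlycd, which degrades malonyl-CoA, was 3.04-fold higher in mOCd than in BMM, at 88.6 against 29.1. Acacb, which makes malonyl-CoA, was under the floor on all arrays on its brightest probe set, and its other probe set exceeded the floor in mOCd only (17.0). Acaca, which also makes malonyl-CoA, read 103.0 in BMM and 89.7 in pOC, then 68.0 in mOCp and 90.1 in mOCd. Those values are above the floor on all 4 arrays, and Acaca was not counted in any comparison.

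**Figure D4:**
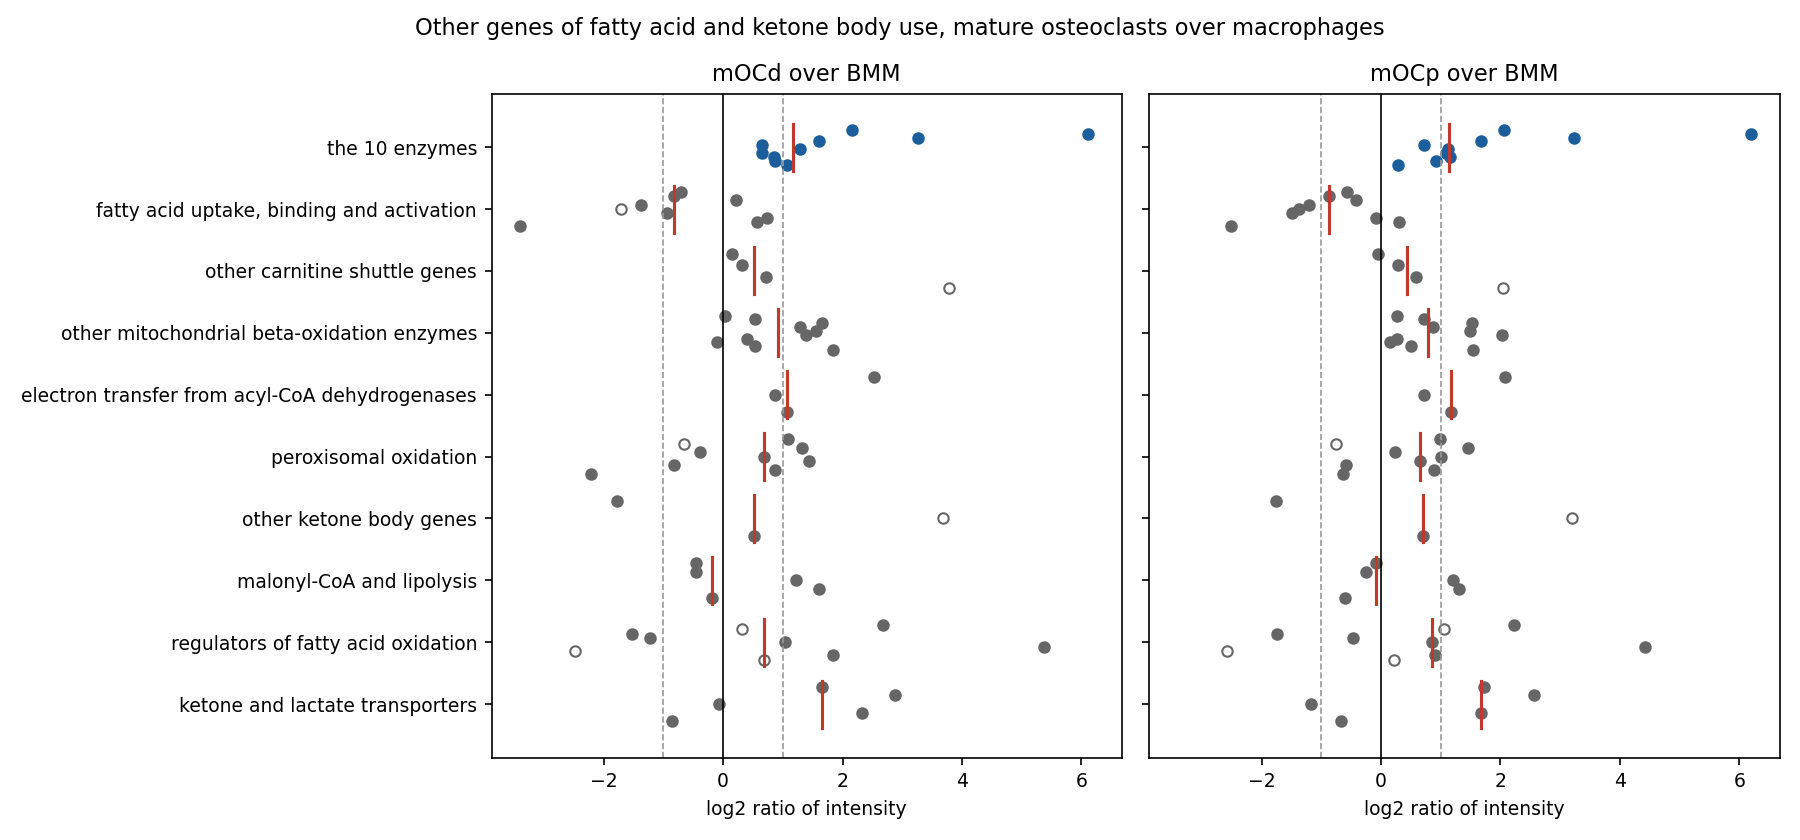
log2 ratio of intensity (horizontal axis) in mOCd over BMM (left) and mOCp over BMM (right) for the 10 enzymes (blue) and 9 further lists (grey), 1 point per gene above the floor on at least 1 array, with open points where a value was at the floor, red bars for the list median and dashed lines at 2-fold. All 10 enzymes lie to the right of 0, whereas the uptake, binding and activation list has its median at −0.82 on the left and −0.87 on the right.

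Among the regulators, Ppargc1b, a coactivator of mitochondrial genes, read 27.8 in BMM and 550.6 in pOC, then 593.1 in mOCp and 1156.5 in mOCd, 19.8-fold higher in pOC than in BMM. Its partner Esrra, the estrogen-related receptor alpha, read 129.8 in BMM and 319.7 in pOC, then 233.4 in mOCp and 267.3 in mOCd, 2.46-fold higher in pOC than in BMM (log2 1.30, against 0.54 on its dimmer probe set). Sirt3, the mitochondrial deacetylase, was 3.31-fold higher in pOC, 6.38-fold in mOCd and 4.69-fold in mOCp than in BMM. Pparg, the lipid-activated receptor, read 88.5 in BMM and was under the floor on the other arrays, at least 6.10-fold lower in pOC than in BMM, and Prkaa1, a catalytic subunit of AMP-activated kinase, was 2.54-fold lower in pOC than in BMM. Ppara, the receptor best known for inducing these enzymes in liver, read from 6.2 to 20.5, near the floor, and Ppargc1a was under it on all 4 arrays.

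The carriers that move ketone bodies and lactate across the plasma membrane changed in unlike ways. Slc16a7, the monocarboxylate transporter MCT2, read 82.8 in BMM and 480.6 in pOC, then 492.1 in mOCp and 610.2 in mOCd, 5.80-fold higher in pOC than in BMM. Slc16a1, which encodes MCT1, peaked, with 274.6 in BMM and 553.4 in pOC, then 172.6 in mOCp and 152.0 in mOCd, 3.64-fold lower in mOCd and 3.21-fold lower in mOCp than in pOC. Slc16a3, the lactate exporter MCT4, read 59.8 in BMM and 49.0 in pOC, then 191.4 in mOCp and 298.1 in mOCd, 6.08-fold higher in mOCd and 3.91-fold higher in mOCp than in pOC. Bsg, the chaperone of MCT1 and MCT4, was 3.14-fold higher in mOCd and 3.31-fold higher in mOCp than in BMM, and Slc16a6 was 3.81-fold lower in mOCp than in pOC.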

How the data were processed

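RNA from BMM, pOC, mOCp and mOCd was measured on 1 one-colour array each, after TRIzol extraction, oligo-dT priming and biotin labelling of the transcribed RNA with an Enzo kit, per the labels' protocols. The deposited values are linear signal intensities, 1 for each of 45101 probe sets, and MAS5 is named per the submitters' processing notes, its version not given in the sources used here. On every array the deposited intensity had a mean of 100.0 after 2% was trimmed from each end, so differences in total mRNA are removed. Intensities of different probe sets are not on a common scale, so levels are compared only within a probe set. The sums of cell type markers are an exception and serve as a rough check only. Among 45037 probe sets that are not controls, 34945 had 1 symbol in the platform annotation of GEO, 932 had several and 9160 were not listed.

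The floor (50th percentile), the 75th percentile and ratios were computed with Python 3.11.15 and pandas 2.3.3, and quantile and cyclic loess normalization with limma 3.58.1 in R 4.3.3. The counting rule was tested on simulated data, with changes larger than the threshold and noise smaller than the disagreement of probe sets. That test does not show how often calls near 2-fold are wrong. No test between groups can be made with 1 array per group, so precision is limited by the number of arrays. The enzymes and gene lists were chosen with earlier results of these arrays known. Genes named singly were all 10 enzymes, every list gene counted in at least 1 of 6 comparisons, and the 5 genes nearest to Bdh1, with a few further list genes named after their values were seen. Alternatives changed the floor, scaling, probe set choice, filter and fold threshold.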

Additional observations from a re-analysis of the deposited data

Results flagged for a closer look

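Several probe sets had ratios to pOC of opposite sign on dentin and on plastic, with 1 array on each side, and the difference was not tested. For the enzymes these were dim or suffixed probe sets and not the brightest ones. The log2 ratio to pOC of Cpt1a was 0.69 on dentin and −0.51 on plastic for the brighter of its other probe sets, and 0.32 on dentin and −0.11 on plastic for the dimmer. That of Cpt2 was −0.32 on dentin and 0.29 on plastic for its other probe set, whose intensities lay between 14.9 and 24.9. Among the other genes of the pathway, Hsd17b10 had −0.46 on dentin and 0.17 on plastic, both inside the disagreement of probe sets given below. Opposite signs also occurred for other list genes, among them Rxra (−0.70 on dentin and 0.06 on plastic) and Abhd5 (−0.13 and 0.23). Cd36 had −0.041 on dentin and 0.85 on plastic, and Acaa1a 0.77 on dentin and −0.022 on plastic. The values of Cd36 on dentin and of Acaa1a on plastic are far inside the disagreement of probe sets (SD 0.54 for mOCd over pOC and 0.41 for mOCp over pOC). Other probe sets of both genes were above 0 on both surfaces, at 0.13 and 0.57 on dentin and 0.85 and 0.33 on plastic for Cd36, and at 0.12 on dentin and 0.37 on plastic for Acaa1a.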

How the results depend on the processing

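No enzyme was counted as lower in any setting tried, and the counts below are of enzymes counted as higher. With median scaling 4 were counted in mOCp over BMM, and with hybridization controls, an alternative chosen after seeing the data, 2 in mOCp over pOC and 4 in mOCp over BMM. The planned scaling to labelling controls was not run, since their 18 probe sets read at most 13.5. With the mean over probe sets 2 were counted in pOC over BMM and 1, Hadhb, in mOCd over mOCp, and the log2 ratio of Bdh1 in pOC over BMM was 4.28 in place of 4.79. The Hadhb mean includes a dim probe set that read 3.0 in mOCp, under the floor, and 27.2 in mOCd. The 2 bright Hadhb probe sets had log2 ratios of −0.07 and 0.08 in mOCd over mOCp. At 1.5-fold 6 were counted in mOCd over pOC, 1 in mOCd over mOCp and 10 in mOCd over BMM. Of all eligible genes 1607 of 7229, 636 of 6913 and 2126 of 7533 were higher at 1.5-fold in these comparisons. For mOCd over mOCp that share is not far from 1 of 10. At 3-fold 2 were counted in pOC over BMM, 0 in mOCp over pOC, 0 in mOCd over pOC and 4 in mOCp over BMM. Of all eligible genes 337 of 7251, 218 of 7188, 327 of 7229 and 725 of 7452 were higher at 3-fold in these comparisons. The other counts of enzymes, and the log2 ratio of Bdh1, stayed within 1.5 times or within the disagreement of probe sets. This held under these settings, other floors, quantile and loess normalization, no intensity filter and no suffixed probe sets. Apart from thresholds, the cause was not tested. No paired analysis was possible because each group has 1 array. Low signal limits the ratios of Bdh1 to BMM, where its intensity was 34.7 and its second probe set was under the floor.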
